A study of Homo sapiens with 4 samples.

Results

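The genes examined here encode the vacuolar ATPase (V-ATPase), the proton pump that acidifies lysosomes, and the cathepsins, proteases that work inside them. They are the protein-coding genes whose current symbols begin with ATP6V0, ATP6V1 or ATP6AP, together with the cathepsins A, B, C, D, F, H, K, L, O, S, V and Z, found by name and not by any measured value. This gave 36 of the 27685 gene IDs in the data, 24 for the V-ATPase and 12 for the cathepsins. RNA was sequenced from the embryonal carcinoma line NCC-IT-A3; such lines derive from germ cell tumours and resemble cells of the early embryo. Cells had been given 100 nM barasertib, an inhibitor of the mitotic kinase Aurora B, or the solvent DMSO, in both cases for 4 days in RPMI medium with 10% serum. Each group held 2 libraries, and the labels do not say whether separate cultures were used. The p-values therefore cover the spread between these libraries alone, which may be technical. No other genotype, time or dose was analysed here.

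The V-ATPase is a rotary pump. Its cytosolic V1 sector hydrolyses ATP, and the rotation this drives turns the membrane sector, V0, which carries protons across the membrane. Several subunits are encoded by alternative genes with different tissue distributions. Cathepsins are made as inactive precursors and mature in the acidic lumen; most are cysteine proteases, whereas cathepsin D is an aspartic and cathepsin A a serine enzyme.

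Values are TPM, a level of transcripts per transcript length relative to the whole library. Aligned bases, derived from the ratio of deposited coverage to FPKM, came to 4.59 and 4.52 Gb with barasertib, against 4.22 and 4.43 Gb with DMSO. Log2 levels of the tested genes correlated at 0.992 and 0.993 within the groups and at 0.979 to 0.981 between them, a description across genes, which are not independent replicates. All 12 embryonal carcinoma markers examined were above the test minimum of 1 TPM. They summed to 6944 and 6802 TPM with DMSO and to 7732 and 7444 TPM with barasertib, of which POU5F1 made up 3524 to 3999 TPM. In the test below 5 of them rose (41.7%, beside 22.0% of all tested genes) and 2 fell (16.7%, beside 7.44%). PODXL was at 506 and 167 TPM in the barasertib libraries. Of the 13938 genes tested with limma on log2(TPM + 1), 3071 rose and 1037 fell with barasertib at a Benjamini-Hochberg adjusted p of 0.05, and the median change of all tested genes was 0.11 (log2). That median was 0.0028 after median-of-ratios scaling and -0.0077 after quantile normalisation, with 1668 rises and 1721 falls after the former and 1649 and 1590 after the latter. Calls that held in all 3 scalings (the deposited and these) are therefore given separately.

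More V-ATPase genes rose than fell with barasertib. Of the 24 genes, 20 were tested, and 9 of these rose (45%, beside 22.0% of all tested genes), 1 fell (5%, beside 7.44%) and 10 were not called, when 29.5% of all tested genes were called in either direction. The rises were led by ATP6V0E2, the minor isoform of subunit e, at 2.03-fold in TPM + 1, a scale that understates changes of low genes. On the same scale the other rises ran from 1.17-fold in ATP6V1F to 1.44-fold in ATP6V1G2. The fall was in ATP6V0A2, an isoform of subunit a. The median log2 change of the 20 genes was 0.24, beside 0.11 for all tested genes, and 0.13 after median-of-ratios scaling, beside 0.0028. In all 3 scalings 5 genes rose (25%, beside 10.7%), namely ATP6V0C, ATP6V0E1, ATP6V0E2, ATP6V1A and ATP6V1D, and ATP6V0A2 fell (5%, beside 7.05%). Both barasertib libraries lay above both DMSO libraries in 14 of the 20 genes (70%, beside 49.1% of all tested genes) and below them in 3 (15%, beside 19.7%). Without barasertib replicate 1 or without DMSO replicate 1, 5 genes rose, and no fall was called without barasertib replicate 1, DMSO replicate 1 or DMSO replicate 2.

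**Figure D1:**
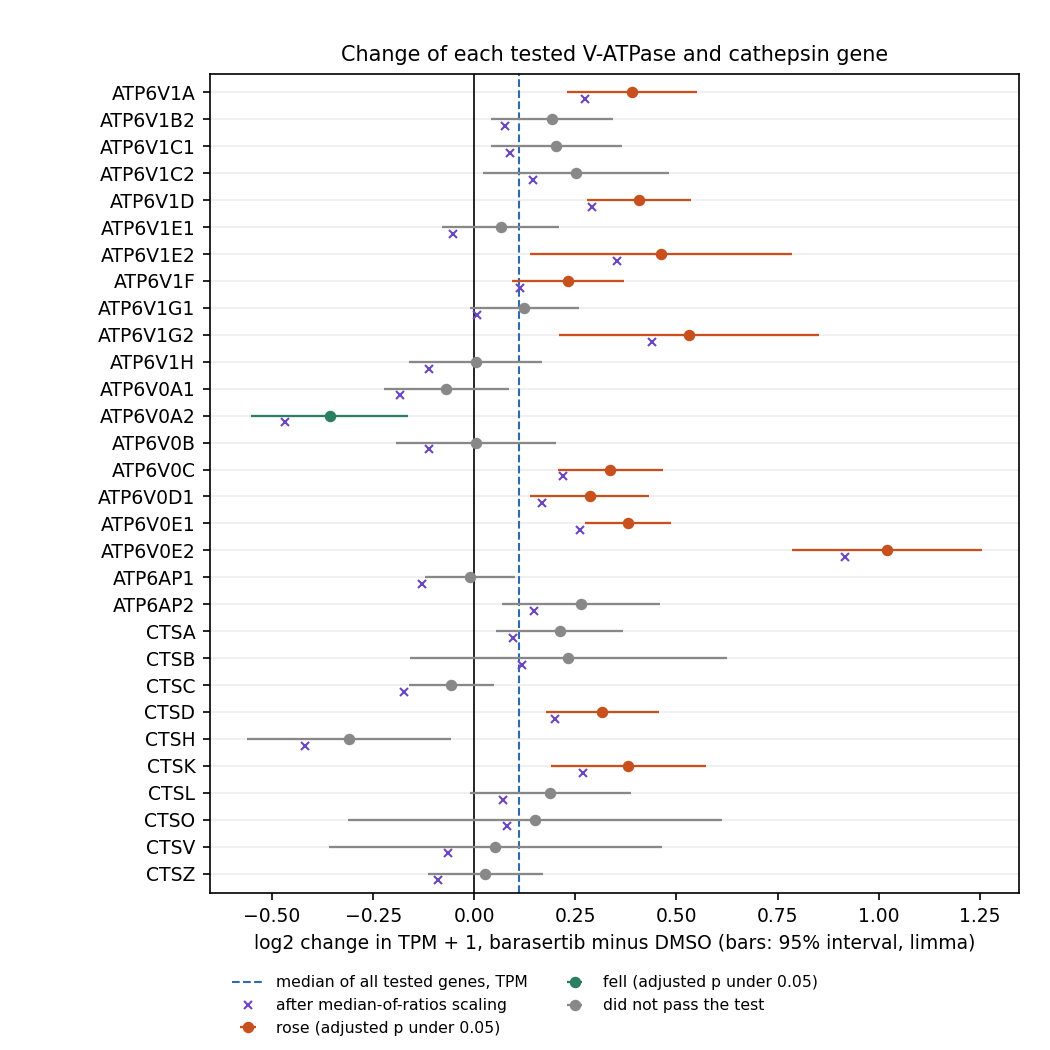
Log2 change in TPM + 1 (horizontal axis, barasertib minus DMSO) of each tested V-ATPase and cathepsin gene, with the 95% interval from limma. ATP6V0E2 stands at 1.02, apart from the other members, which lie between -0.36 and 0.53.

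Promoter sequence was available in RefSeq (GRCh38.p14) for 25 of the 36 members, as windows of 300 bases from 250 before to 50 after an annotated start. ATP6V0D2, ATP6V0E1, ATP6V1A, ATP6V1B2, ATP6V1C1, ATP6V1E2, ATP6V1H, CTSB, CTSK, CTSO and CTSS had no entry. The windows were searched for CACGTG, the E-box bound by basic helix-loop-helix factors and among them by TFEB, a known activator of lysosomal genes, and for its longer form TCACGTGA. Both read the same on either strand, and the longer form contains the shorter. CACGTG lay in windows of 7 of the 25 members (28%), beside 1727 of 15842 protein-coding genes with an entry (10.9%). TCACGTGA lay in 3 members (12%), ATP6V0D1, ATP6V1G1 and CTSA, beside 262 genes (1.65%). The members with CACGTG were ATP6V0B, ATP6V0D1, ATP6V0E2, ATP6V1G1, CTSA, CTSD and CTSF. The sequences below show the motif in capitals, first in windows with a flank of 30 bases for the 3 members with the longer form and for ATP6V0B and CTSD, which differ in response, and then in a whole window of ATP6V0E2, the member with the largest change. ATP6V0E2 has 3 windows in RefSeq, of which 2 nearly coincide and hold CACGTG. The window of its other start, at chr7:149873719-149874018, does not hold it. All sequences read 5′ to 3′ on the gene's strand.
ATP6V0D1 (chr16:67481181-67481246, minus strand): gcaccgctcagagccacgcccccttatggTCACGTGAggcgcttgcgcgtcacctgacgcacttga
ATP6V1G1 (chr9:114587681-114587746, plus strand): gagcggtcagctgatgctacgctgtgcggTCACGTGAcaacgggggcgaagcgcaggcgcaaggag
CTSA (chr20:45891280-45891345, plus strand): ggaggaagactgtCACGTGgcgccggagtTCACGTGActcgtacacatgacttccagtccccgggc
ATP6V0B (chr1:43974873-43974938, plus strand): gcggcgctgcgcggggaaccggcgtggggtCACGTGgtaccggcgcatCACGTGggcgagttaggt
CTSD (chr11:1763939-1764004, minus strand): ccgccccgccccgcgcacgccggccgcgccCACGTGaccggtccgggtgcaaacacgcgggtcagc
ATP6V0E2 (chr7:149872718-149873017, plus strand): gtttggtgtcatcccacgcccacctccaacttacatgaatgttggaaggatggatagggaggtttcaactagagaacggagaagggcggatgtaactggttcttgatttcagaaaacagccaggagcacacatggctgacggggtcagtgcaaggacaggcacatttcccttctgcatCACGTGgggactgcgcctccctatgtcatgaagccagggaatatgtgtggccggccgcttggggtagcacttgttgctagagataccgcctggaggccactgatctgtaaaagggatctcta
The first base of CACGTG lay 59 bases before the start in ATP6V0D1, 58 in ATP6V1G1, 25 in CTSA, 57 in ATP6V0B, 47 in CTSD and 72 in ATP6V0E2. ATP6V0B and CTSA each hold a second CACGTG, 39 and 42 bases before the start, which also stand in capitals. The motif was found both in members that rose (ATP6V0D1, ATP6V0E2, CTSD) and in members that were not called (ATP6V0B, ATP6V1G1, CTSA). Members that rose without it in their windows were ATP6V0C, ATP6V1D, ATP6V1F and ATP6V1G2. A match describes the letters only, and neither binding nor use of these starts was measured.

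The V1 sector held 13 genes, of which 11 were tested. Of these 5 rose (45%, beside 22.0% of all tested genes) and none fell by limma (beside 7.44%, none at an unadjusted p under 0.05). ATP6V1A encodes the catalytic subunit A, where ATP is hydrolysed. Its level was 38.8 and 41.9 TPM in the DMSO libraries and 52.1 and 54.3 TPM in the barasertib libraries, a log2 change of 0.39 (SE 0.066, limma adjusted p = 0.00896). The groups did not overlap, although the call was lost without barasertib replicate 2 (limma adjusted p = 0.0521). ATP6V1D encodes subunit D of the central rotor shaft, and its level was 65.7 and 67.5 TPM with DMSO and 87.4 and 90.1 TPM with barasertib. The log2 change was 0.41 (SE 0.0525, limma adjusted p = 0.00376), and the call held under each of the 14 alternatives, where the adjusted p reached at most 0.0288. ATP6V1F, which encodes subunit F of the same shaft, stood at 188 and 190.4 TPM with DMSO and at 233 and 212 TPM with barasertib. Its log2 change was 0.23 (limma adjusted p = 0.0287), and the call was kept under 6 of the 14 alternatives. It was lost after median-of-ratios scaling (0.11, limma adjusted p = 0.21) and when barasertib replicate 1 or either DMSO library was left out (limma adjusted p = 0.0636 to 0.0921).

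The remaining rises in V1 were in the less abundant isoforms of the peripheral stalks, which hold the catalytic head still against the turning rotor. ATP6V1E2, an isoform of subunit E known mainly from testis, was at 9.10 and 11.9 TPM with DMSO and at 15.4 and 14.1 TPM with barasertib (log2 change 0.46, limma adjusted p = 0.0455). ATP6V1G2, an isoform of subunit G known mainly from neurons, was at 2.64 and 2.65 TPM and at 4.01 and 4.55 TPM (log2 change 0.53, limma adjusted p = 0.0294). In both genes the groups were separate, but neither was called after either other scaling (limma adjusted p = 0.0563 to 0.121). The call of ATP6V1E2 was kept under 5 of the 14 alternatives and ended when DMSO replicate 1 or either barasertib library was left out (limma adjusted p = 0.113 to 0.185). That of ATP6V1G2, which averaged under 5 TPM and so had 13 alternatives, was kept under 6 and ended whichever library was left out (limma adjusted p = 0.0746 to 0.126). ATP6V1G2 also overlaps the readthrough transcript ATP6V1G2-DDX39B, which was listed at 51.7 TPM in DMSO replicate 1 and at 0 in the other 3 libraries, so the assignment of reads between them is uncertain.

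The major isoforms of the same stalks were not called. ATP6V1E1 was at 130.2 and 141 TPM with DMSO and at 145.5 and 138.5 TPM with barasertib, with overlapping groups (log2 change 0.06, limma adjusted p = 0.442). ATP6V1G1, whose promoter holds the longer motif, was at 188 and 204 TPM and at 210.2 and 217 TPM, with both barasertib libraries higher (log2 change 0.12, limma adjusted p = 0.141). Among the other subunits, ATP6V1B2, the nucleotide-binding partner of subunit A, was at 37.7 and 39.8 TPM with DMSO and at 44.6 and 44.1 TPM with barasertib (log2 change 0.19, limma adjusted p = 0.0617). The subunit C genes, whose product links the stalks and leaves when V1 detaches, showed similar values. ATP6V1C1 was at 27.9 and 29.7 TPM and at 33.0 and 33.6 TPM (log2 change 0.20, limma adjusted p = 0.0659), and ATP6V1C2 at 6.71 and 6.92 TPM and at 8.15 and 8.44 TPM (log2 change 0.25, limma adjusted p = 0.0946). All 3 had both barasertib libraries above both DMSO libraries without passing the test. ATP6V1H, the regulatory subunit H that restrains ATP hydrolysis in free V1, was at 43.7 and 47.9 TPM with DMSO and at 45.3 and 46.4 TPM with barasertib, and its interval for the log2 change ran from -0.16 to 0.17.

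**Figure D2:**
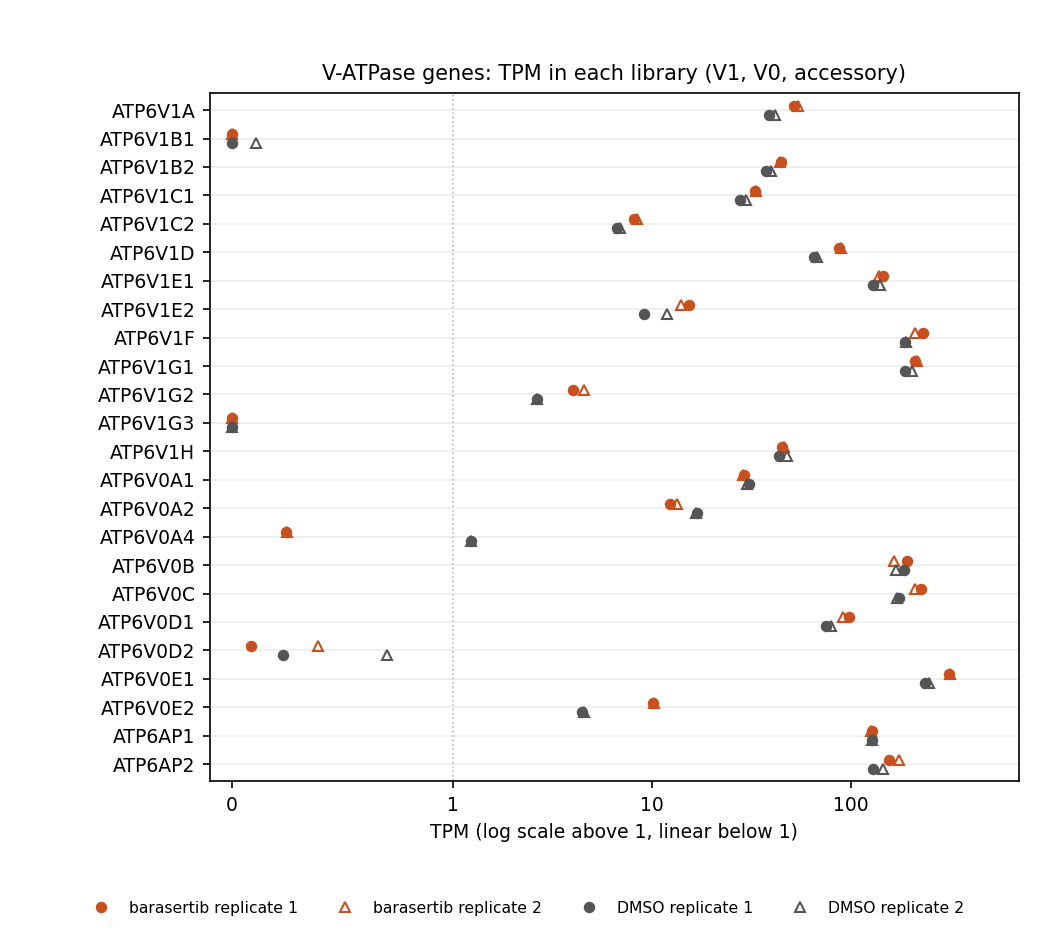
TPM (horizontal axis, logarithmic above 1 and linear below) of the V-ATPase genes in each of the 4 libraries, with 1 point per library. ATP6V0E1 is the most abundant, at 236 to 317 TPM, and 4 genes average below 1 TPM.

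In the V0 sector, which held 9 genes, 7 were tested. Of these 4 rose (57.1%, beside 22.0% of all tested genes) and 1 fell (14.3%, beside 7.44%). ATP6V0E2 encodes the less abundant form of subunit e, a small membrane protein, and lies on the plus strand at chr7:149570057-149577801 (hg19). Its level was 4.48 and 4.54 TPM in the DMSO libraries and 10.1 and 10.2 TPM in the barasertib libraries. The groups were far apart relative to their spread, with a log2 change of 1.02 (95% interval 0.79 to 1.26, limma adjusted p = 0.0015), and the call held under all 14 alternatives (limma adjusted p up to 0.02). The antisense gene ATP6V0E2-AS1, which overlaps its start, was at 0.129 to 0.523 TPM, and the sources used here do not say whether the authors' summary used strand. The major form, ATP6V0E1, was at 236 and 247 TPM with DMSO and at 313 and 317 TPM with barasertib. This was a smaller relative rise on a far higher level (log2 change 0.38, SE 0.0433, limma adjusted p = 0.00254), and it too held under all 14 alternatives.

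ATP6V0C encodes subunit c, the proteolipid whose copies form most of the proton-carrying ring. Its level was 175 and 171 TPM with DMSO and 227 and 210.1 TPM with barasertib, without overlap (log2 change 0.34, SE 0.0535, limma adjusted p = 0.00734). The call held under each alternative, with adjusted p up to 0.0436. ATP6V0B, which encodes subunit c″ of the same ring, was at 185 and 170.1 TPM and at 191 and 165 TPM. Its groups overlapped entirely and the interval for the log2 change ran from -0.19 to 0.20. ATP6V0D1 encodes subunit d, which couples the V1 shaft to the ring, and stood at 75.7 and 79.6 TPM with DMSO and at 98.2 and 91.6 TPM with barasertib. Its log2 change of 0.29 passed the test (limma adjusted p = 0.018) but not after median-of-ratios scaling (0.17, limma adjusted p = 0.0947), quantile normalisation (0.19, limma adjusted p = 0.0734), or when replicate 1 of barasertib or of DMSO was left out (limma adjusted p = 0.0796 and 0.0722). The call was kept under 9 of the 14 alternatives.

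Subunit a, the stationary membrane arm that holds the proton channels, is known to direct the pump to different organelles through its isoforms. ATP6V0A2, associated with the Golgi and endosomes, lies at chr12:124196865-124246301 (hg19, plus strand) and was at 16.8 and 16.7 TPM with DMSO and at 12.4 and 13.3 TPM with barasertib. It was the only V-ATPase gene called lower, by limma with a log2 change of -0.36 (SE 0.08, adjusted p = 0.0215), and the change was -0.47 after median-of-ratios scaling. Leaving out barasertib replicate 1, DMSO replicate 1 or DMSO replicate 2 ended the call (limma adjusted p = 0.0852, 0.0803 and 0.0705). ATP6V0A1, the widely expressed form, was at 30.9 and 30.03 TPM and at 29.2 and 28.8 TPM (log2 change -0.07, limma adjusted p = 0.441). Both barasertib libraries were below both DMSO libraries, by less than the test could call. ATP6V0A4, the form of kidney intercalated cells, was at 1.23 TPM in each DMSO library and at 0.242 and 0.248 TPM in the barasertib libraries. It fell below the filter on the mean, and in the fit without that filter its log2 change was -0.84 (limma adjusted p = 0.0134), at a coverage of 0.450 to 2.23 reads per base. TCIRG1, the a3 isoform best known from osteoclasts, whose symbol lies outside the naming rule, was at 17.8 and 19.9 TPM with DMSO and at 25.6 and 19.0 TPM with barasertib, with overlapping groups.

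Neither accessory gene was called. ATP6AP1, which encodes the accessory subunit Ac45 used in pump assembly and sorting, was at 128 and 127.9 TPM with DMSO and at 127.8 and 126 TPM with barasertib, and the interval for its log2 change ran from -0.12 to 0.10. ATP6AP2, the prorenin receptor, was at 129.8 and 145 TPM and at 155 and 175 TPM, with both barasertib libraries higher. Its log2 change of 0.26 missed the threshold in limma (adjusted p = 0.0531) and passed it with a 5 TPM minimum (limma adjusted p = 0.0453) and without DMSO replicate 2 (limma adjusted p = 0.03). Of the untested genes besides ATP6V0A4, ATP6V1G3 was listed at 0 in every library, ATP6V1B1 was at 0.107 TPM in DMSO replicate 2 and at 0 elsewhere, and ATP6V0D2 ranged from 0.0857 to 0.702 TPM. These are forms known from kidney, osteoclasts and other specialised cells.

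Summed over its genes, the V-ATPase took 1750 ± 40.2 TPM with DMSO (mean ± SD, n = 2) and 2022 ± 30.5 TPM with barasertib, a ratio of 1.16. The ratio was 1.14 for V1, 1.19 for V0 and 1.101 for the accessory genes. No test was made of these sums. The smallest two-sided p that an exact permutation test can give for 2 libraries against 2 is 0.333. The summed V1 level divided by the summed V0 level was 1.02 and 1.09 with DMSO and 0.996 and 1.03 with barasertib, so the groups overlapped in the balance of the sectors. In DMSO the most abundant gene was ATP6V0E1 at 242 ± 7.65 TPM, followed by ATP6V1G1 at 196 ± 11.7, ATP6V1F at 189 ± 1.89, ATP6V0B at 177 ± 10.4 and ATP6V0C at 173 ± 3.08 TPM. ATP6V0E1 stood clear of these. ATP6V1G1 and ATP6V1F overlapped, as did ATP6V0B and ATP6V0C, whereas both DMSO libraries of ATP6V1F lay above those of ATP6V0B.

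For subunits with several genes, the share of each paralog in the summed TPM of its subunit was followed in each library. ATP6V0E2 made up 1.86% and 1.81% of subunit e with DMSO and 3.13% in each barasertib library, a larger share in both. ATP6V1E2 supplied 6.53% and 7.75% of subunit E with DMSO and 9.58% and 9.21% with barasertib, and ATP6V1G2 supplied 1.39% and 1.28% and then 1.87% and 2.06% of subunit G. Within subunit a as given by the naming rule, ATP6V0A4 went from 2.52% and 2.57% to 0.58% and 0.586%, and ATP6V0A2 from 34.4% and 34.8% to 29.7% and 31.4%, while ATP6V0A1 stood at 63.1% and 62.7% with DMSO and at 69.8% and 68.0% with barasertib. In these 6 genes the libraries of the groups did not overlap, and no test of a share was made. The shares of subunit a leave out TCIRG1, which was above ATP6V0A2 in each library (17.8 and 19.9 TPM with DMSO, 25.6 and 19.0 TPM with barasertib). The separation of ATP6V0A1 depends on leaving TCIRG1 out. The major genes still supplied most of subunits e, E and G, at 96.9%, 90.4% and 97.9% or more in every library. ATP6V1C2 took 19.4% and 18.9% of subunit C with DMSO and 19.8% and 20.1% with barasertib, also without overlap.

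**Figure D3:**
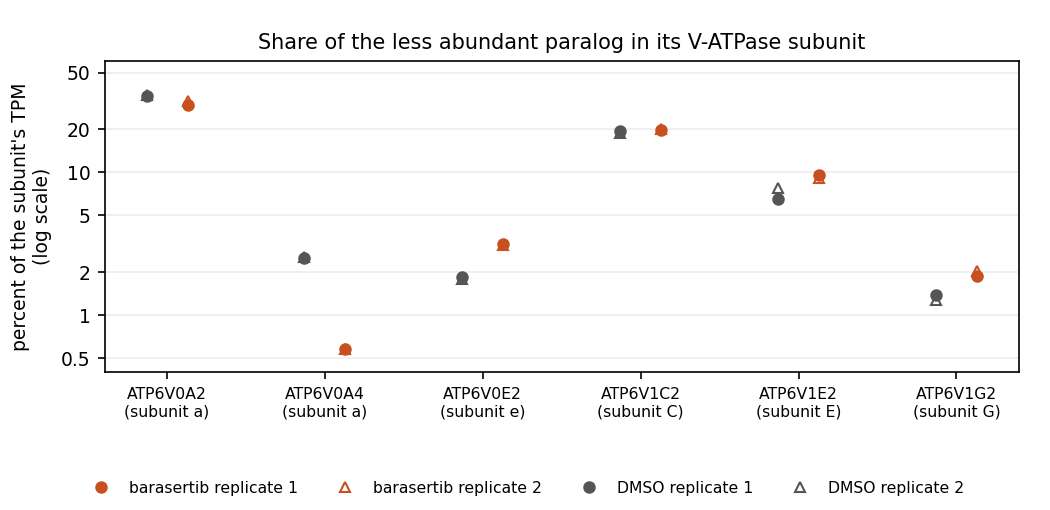
Share of the less abundant paralog in the summed TPM of its V-ATPase subunit (percent), with 1 point per library. Subunit a is taken without TCIRG1. The shares of ATP6V0E2, ATP6V1E2 and ATP6V1G2 are higher, and those of ATP6V0A2 and ATP6V0A4 lower, in both barasertib libraries.

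Few cathepsins changed. Of the 12 genes, 10 were tested, 2 rose (20%, beside 22.0% of all tested genes), none fell by limma (1, CTSH, at an unadjusted p under 0.05) and 8 were not called. The share of rises was near that of all genes, and the median log2 change of 0.17, beside 0.11 for all tested genes, was 0.08 after median-of-ratios scaling and 0.02 after quantile normalisation. No cathepsin was called in the same direction in all 3 scalings (0%, beside 10.7% higher and 7.05% lower). Summed over the family the DMSO level was 886 ± 23.7 TPM and the barasertib level 960.3 ± 3.16 TPM. The cysteine cathepsins alone stood at 602 ± 26.8 and 610 ± 27.0 TPM, a difference smaller than the spread. Among them the means of CTSC and CTSH were lower with barasertib and those of the others higher. Most of the difference in the family sum lay in CTSD, at 240 ± 3.50 and 299.5 ± 21.0 TPM.

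CTSD encodes the aspartic protease cathepsin D, a main endopeptidase of the lysosome, at chr11:1773982-1785222 (hg19, minus strand). Its level was 242 and 238 TPM with DMSO and 314 and 285 TPM with barasertib, both higher, with a log2 change of 0.32 (SE 0.0573, limma adjusted p = 0.0109). The call held after quantile normalisation and without each library in turn, and was lost after median-of-ratios scaling (0.20, limma adjusted p = 0.0577) and with no mean-variance trend (limma adjusted p = 0.0573). CTSA, which encodes the serine carboxypeptidase that also protects β-galactosidase and neuraminidase, was at 43.7 and 44.3 TPM and at 53.1 and 49.1 TPM. Both barasertib libraries were higher, at a log2 change of 0.21 that missed the threshold (limma adjusted p = 0.0533, and 0.0471 to 0.329 over the alternatives).

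Among the cysteine cathepsins, 8 of 10 were tested and only CTSK was called, higher (12.5%, beside 22.0% of all tested genes). CTSK, the collagen-degrading protease best known from osteoclasts, was at 13.3 and 14.3 TPM with DMSO and at 18.5 and 18.0 TPM with barasertib (log2 change 0.38, SE 0.0785, limma adjusted p = 0.0167). The groups were separate, but the call, kept under 9 of the 14 alternatives, was lost after either other scaling (limma adjusted p = 0.0524 and 0.0523) and when DMSO replicate 1 or either barasertib library was left out (limma adjusted p = 0.0606 to 0.0759). Because osteoclasts, macrophages and fibroblasts express CTSK or CTSS, their markers were read in the same libraries. The 10 macrophage and osteoclast markers summed to 0.963 and 1.16 TPM with DMSO and to 3.64 and 4.34 TPM with barasertib. Of these 9 averaged below 1 TPM, and PTPRC, AIF1, TYROBP and ACP5 were at 0 in all 4 libraries. CD14, ITGAM and OSCAR were higher in both barasertib libraries at levels below 1 TPM. FCER1G was called higher (log2 change 1.01, limma adjusted p = 0.0203). It averaged 0.848 TPM with DMSO and 2.69 TPM with barasertib, so it passed the minimum only through the barasertib libraries. The 8 fibroblast markers summed to 7.10 and 7.68 TPM and to 18.9 and 20.5 TPM, with 6 below 1 TPM on average and FAP at 0 in all libraries. Most of the sum came from POSTN (5.40 ± 0.0274 and 16.3 ± 1.39 TPM), which was called higher under all 14 alternatives (log2 change 1.43, limma adjusted p = 0.000617). COL3A1 was not called, and COL1A1 and LUM, averaging below 1 TPM, were higher in both barasertib libraries. The part of these cell types in the level of CTSK was not tested, and in bulk RNA more cells of a type and more RNA per cell cannot be told apart.

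CTSS, the cathepsin of antigen-presenting cells, averaged below 1 TPM and was not in the main test. It was at 0.0273 and 0.0514 TPM with DMSO and at 0.457 and 0.579 TPM with barasertib, at a coverage of 0.0492 to 1.13 reads per base. The barasertib libraries were higher on a very low level, and in the fit without the filter the log2 change was 0.55 on the log2(TPM + 1) scale (limma adjusted p = 0.0237). CTSF, a papain-family protease, was at 0.45 and 0.877 TPM and at 0.462 and 0.979 TPM and was not tested either.

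The abundant endopeptidases CTSB and CTSL were not called. CTSB was at 38.7 and 38.3 TPM with DMSO and at 37.7 and 54.7 TPM with barasertib. Barasertib replicate 1 lay below both controls and replicate 2 well above them (log2 change 0.23, limma adjusted p = 0.315), and only without replicate 1 did the test pass (limma adjusted p = 0.0234). CTSL was at 54.5 and 58.7 TPM and at 60.4 and 69.0 TPM, both higher (log2 change 0.19, limma adjusted p = 0.133). Its close relative CTSV, known from thymus and testis, was at 51.1 and 70.6 TPM with DMSO and at 55.7 and 69.8 TPM with barasertib. The groups of CTSV overlapped fully. Because CTSL and CTSV are similar in sequence, their sum is also given, at 118 ± 16.8 and 127.5 ± 16.1 TPM, a difference within the spread.

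The exopeptidases were not called higher. CTSC encodes dipeptidyl peptidase I, which activates granule proteases of immune cells, and had the highest TPM of the family, at 342 and 359.8 TPM with DMSO and at 339 and 335 TPM with barasertib. Its log2 change was -0.06 (limma adjusted p = 0.363), and the gene was called lower once median-of-ratios scaling was applied (-0.17, limma adjusted p = 0.0317). That rank depends on the measure: the mean coverage of CTSC was 77.7 to 86.0 reads per base, beside 449 to 626 for CTSD. Its coverage per aligned Gb came to 12.3% to 12.4% of its FPKM in every library, a share at or below which only 2.53% of tested genes lay, beside a median of 99.2% over all tested genes. The other tested cathepsins stood at 94.7% or above, except CTSH at 69.5% to 69.6%. CTSH, an aminopeptidase, was at 14.5 and 12.6 TPM with DMSO and at 11.2 and 10.2 TPM with barasertib, both lower. Its log2 change of -0.31 missed the threshold (limma adjusted p = 0.0682) and passed it after median-of-ratios scaling (-0.42, limma adjusted p = 0.0354) and after quantile normalisation (-0.43, limma adjusted p = 0.035). CTSZ, a carboxypeptidase, was at 67.2 and 64.6 TPM and at 65.4 and 69.0 TPM, and the interval for its log2 change ran from -0.11 to 0.17. CTSO, a little studied member, was at 1.57 and 1.1 TPM and at 1.46 and 1.70 TPM, also with overlapping groups.

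**Figure D4:**
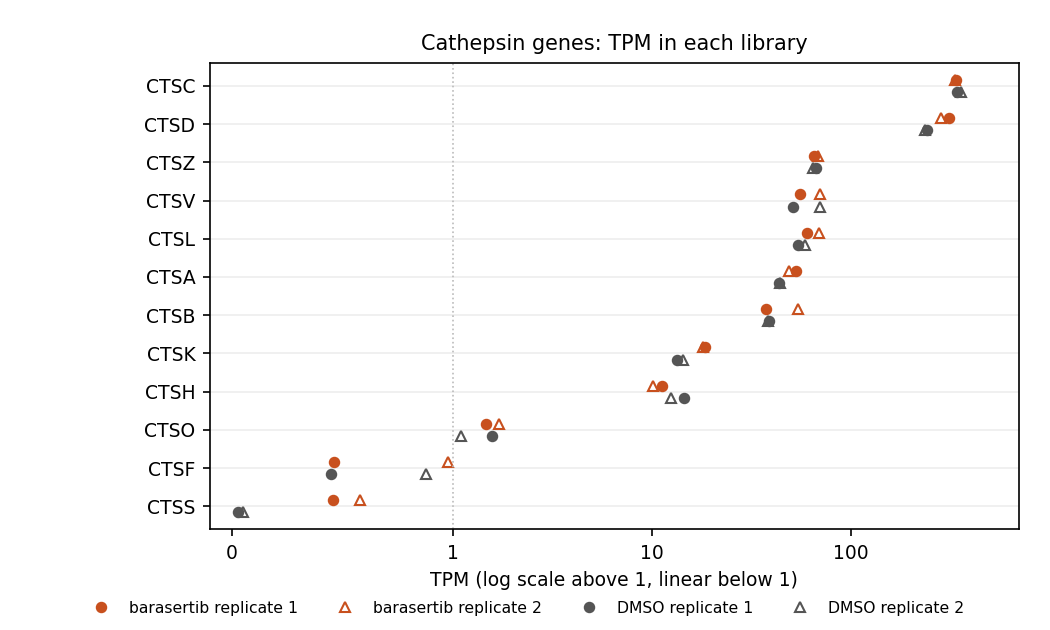
TPM (horizontal axis, logarithmic above 1 and linear below) of the 12 cathepsin genes in each of the 4 libraries, with 1 point per library. CTSC and CTSD are the most abundant, and CTSD lies higher in both barasertib libraries while CTSC does not.

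The 9 lists of other lysosomal genes, chosen with earlier results of these data known, set the members beside their neighbours in the organelle. Of their 149 genes, 129 were tested, 21 rose (16.3%, beside 22.0% of all tested genes) and 15 fell (11.6%, beside 7.44%), with a median log2 change of 0.04 beside 0.11 for all tested genes. The median was -0.06 after either other scaling. In all 3 scalings 8 rose (6.202%, beside 10.7%) and 15 fell (11.6%, beside 7.05%). With 1 library left out, 9 to 13 rose and 5 to 9 fell. Rises were thus a smaller share of these genes than of the V-ATPase genes, and the difference between the lists was not tested.

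Of the 14 tested factors that assemble or regulate the V-ATPase, 1 rose (7.14%, beside 22.0% of all tested genes) and 2 fell (14.3%, beside 7.44%). RNASEK, a membrane component of the pump, went from 189 ± 1.69 TPM in DMSO to 209 ± 0.386 TPM (log2 change 0.14, limma adjusted p = 0.0459), a rise not called after either other scaling or with any 1 library left out. ROGDI, a member of the complex that promotes assembly of V1 with V0, went from 44.6 ± 2.12 to 31.9 ± 2.10 TPM (log2 change -0.47, limma adjusted p = 0.00724), and NCOA7, a TLDc protein that binds the pump, from 13.6 ± 0.386 to 9.45 ± 1.44 TPM (log2 change -0.49, limma adjusted p = 0.0253). The fall of ROGDI held without each library in turn, and that of NCOA7 was lost without barasertib replicate 1, DMSO replicate 1 or DMSO replicate 2.

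In the list of lysosomal gene regulators 4 genes were tested. Of these 2 rose (50%, beside 22.0% of all tested genes) and none fell by limma (beside 7.44%, none at an unadjusted p under 0.05). TFEB, TFE3 and MITF belong to the MiT/TFE family, which binds the motif above, whereas ZKSCAN3 is a zinc-finger repressor, and neither MITF nor ZKSCAN3 was called. TFEB went from 1.1 ± 0.0161 TPM in DMSO to 2.32 ± 0.0995 TPM (log2 change 0.66, limma adjusted p = 0.0284), and TFE3 at 38.5 ± 3.74 and 49.1 ± 3.41 TPM (log2 change 0.35, limma adjusted p = 0.0327). Neither was called in all 3 scalings, and leaving out a library ended the call of TFEB with each of the 4 and that of TFE3 with each except DMSO replicate 2. In nutrient sensing at the lysosome, the V-ATPase contacts the Ragulator complex and the Rag GTPases. Of these 13 genes 2 rose (15.4%, beside 22.0% of all tested genes) and 1 fell (7.69%, beside 7.44%). RRAGD, a Rag GTPase, was at 4.14 ± 0.0479 and 8.99 ± 0.121 TPM (log2 change 0.96, limma adjusted p = 0.00197), and LAMTOR5, a Ragulator subunit, at 166 ± 4.15 and 201 ± 2.88 TPM (log2 change 0.28, limma adjusted p = 0.008). The RRAGD rise held under all 14 alternatives, and that of LAMTOR5 was lost after quantile normalisation. FNIP2, a folliculin partner, fell from 8.43 ± 0.826 to 6.09 ± 0.0074 TPM (log2 change -0.41, limma adjusted p = 0.0349), a call lost when DMSO replicate 2 or either barasertib library was left out.

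Of the inhibitors of cathepsins, 5 were tested. Of these 3 rose (60%, beside 22.0% of all tested genes) and 1 fell (20%, beside 7.44%). CST1, a secreted cystatin, was at 0.284 and 0.680 TPM with DMSO and at 6.56 and 6.50 TPM with barasertib (log2 change 2.36, limma adjusted p = 0.000837). With DMSO it averaged 0.482 TPM, so CST1 passed the 1 TPM minimum only through the barasertib libraries, which limits what its test shows. CST3, cystatin C, the main extracellular inhibitor of cysteine cathepsins, went from 115 ± 0.643 to 143 ± 3.10 TPM (log2 change 0.31, limma adjusted p = 0.00636). Both rises held in all 3 scalings and without each library in turn, which for CST1 does not lift the limit set by its low DMSO level. The cytosolic inhibitor CSTB, at 238 ± 7.09 and 265 ± 4.19 TPM (log2 change 0.15, limma adjusted p = 0.0455), and SERPINB6, at 81.2 ± 0.548 and 71.6 ± 1.16 TPM (log2 change -0.18, limma adjusted p = 0.0442), lost their calls when any 1 library was left out. CSTB was also not called after median-of-ratios scaling (0.04, limma adjusted p = 0.581) or quantile normalisation (0.06, limma adjusted p = 0.371), whereas SERPINB6 was called lower after both.

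Genes that deliver or work beside the cathepsins included calls in both directions. In sorting to lysosomes 2 of 15 rose (13.3%, beside 22.0% of all tested genes) and 2 fell (13.3%, beside 7.44%). GNPTAB encodes the enzyme that starts the mannose phosphate tag on cathepsin precursors. It went from 28.2 ± 0.336 to 16.8 ± 0.602 TPM (log2 change -0.71, limma adjusted p = 0.00168), a fall called under all 14 alternatives. IGF2R, a receptor for that tag, rose (log2 change 0.22, limma adjusted p = 0.0276), as did the sorting adaptor GGA3 (0.27, limma adjusted p = 0.0198). Neither rise was called after either other scaling (limma adjusted p = 0.0873 to 0.208). CLN6, which helps enzymes leave the endoplasmic reticulum, fell (-0.27, limma adjusted p = 0.0497), also after both other scalings. The calls of IGF2R, GGA3 and CLN6 were each lost without at least 3 of the libraries in turn. Of 7 other lysosomal proteases, 1 rose (14.3%, beside 22.0%) and 2 fell (28.6%, beside 7.44%). PRCP, a carboxypeptidase, went from 109.5 ± 4.05 to 68.0 ± 1.97 TPM (log2 change -0.68, limma adjusted p = 0.00104), and TPP1, tripeptidyl peptidase 1, from 80.5 ± 0.94 to 66.2 ± 1.67 TPM (log2 change -0.28, limma adjusted p = 0.0129). DPP7, a dipeptidyl peptidase, rose from 2.30 ± 0.29 to 4.49 ± 0.858 TPM (log2 change 0.73, limma adjusted p = 0.0223). The fall of PRCP held under all 14 alternatives, that of TPP1 was lost without barasertib replicate 2 or DMSO replicate 2, and the rise of DPP7 without barasertib replicate 2 or DMSO replicate 1 and after quantile normalisation.

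Among channels and transporters 2 of 20 rose (10%, beside 22.0% of all tested genes) and 4 fell (20%, beside 7.44%). MCOLN3, a lysosomal calcium channel, rose (log2 change 0.61, limma adjusted p = 0.0455). It averaged 0.915 TPM with DMSO and 1.92 TPM with barasertib, so it passed the 1 TPM minimum only through the barasertib libraries. MCOLN3 was not called after either other scaling. CLN3, a lysosomal membrane protein (-0.46, limma adjusted p = 0.0107), CLCN5, an endosomal chloride-proton exchanger (-0.42, limma adjusted p = 0.0177), and SLC17A5, the sialic acid exporter (-0.42, limma adjusted p = 0.0186), fell. Only the call of CLN3 held without each library in turn. In the list of hydrolases, which also holds their cofactors and lipid carriers, 6 of 42 rose (14.3%, beside 22.0%) and 3 fell (7.14%, beside 7.44%). PSAP, the precursor of the saposin cofactors, was among the rises (log2 change 0.14, limma adjusted p = 0.0295). It was not called after median-of-ratios scaling (0.02, limma adjusted p = 0.673). NPC2, a cholesterol carrier, was among the falls (-0.17, limma adjusted p = 0.0471). The calls of PSAP and NPC2 were lost with no filter, with no mean-variance trend and whichever library was left out. The 4 largest changes among the called genes were in FUCA1, a fucosidase (log2 change 0.59, limma adjusted p = 0.00212), SGSH, a sulfatase (0.48, limma adjusted p = 0.0168), HEXA, a hexosaminidase subunit (0.45, limma adjusted p = 0.0135), and GLA, α-galactosidase (0.42, limma adjusted p = 0.00583), of which FUCA1 and GLA held without each library in turn. Of 9 membrane glycoproteins 2 rose (22.2%, beside 22.0%) and none fell by limma (beside 7.44%, none at an unadjusted p under 0.05). LAPTM4B went from 178.5 ± 6.58 to 245 ± 2.76 TPM (log2 change 0.46, limma adjusted p = 0.00189) and CD63 from 202 ± 1.07 to 249 ± 10.2 TPM (log2 change 0.30, limma adjusted p = 0.00694), both under all 14 alternatives.

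**Figure D5:**
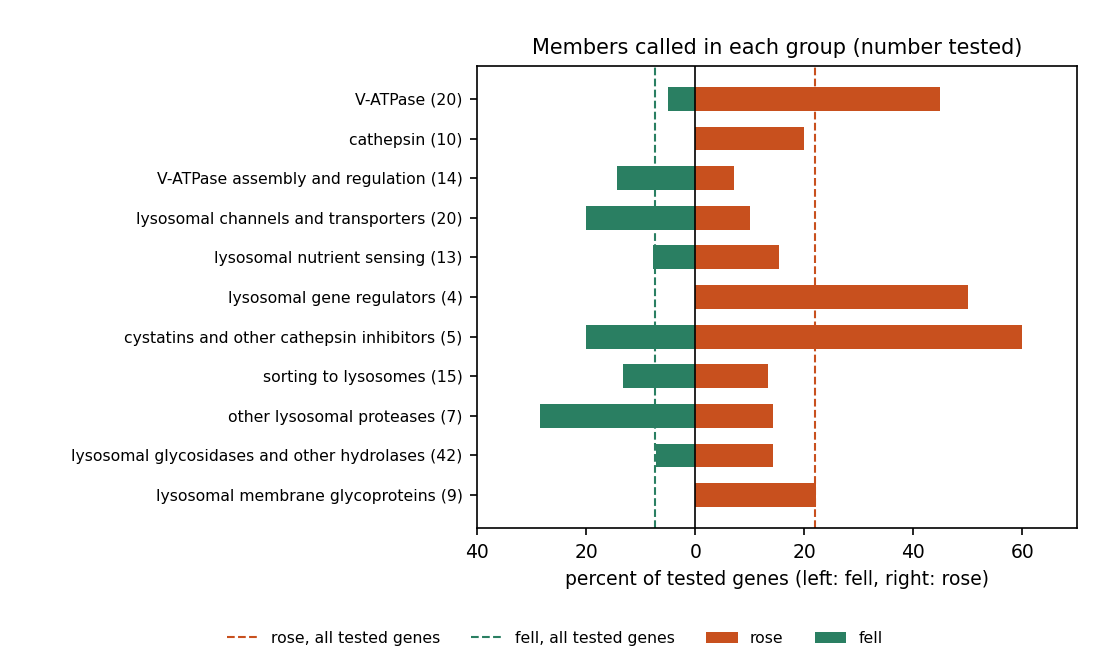
Percent of tested genes that fell (left) and rose (right) with barasertib in the V-ATPase genes, the cathepsins and each list of other lysosomal genes, with the number tested in each label. The V-ATPase genes rose in 45%, the cathepsins in 20% and all tested genes in 22.0% of cases.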

How the data were processed

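RNA-seq of 4 libraries (2 barasertib, 2 DMSO, grouped by the labels) was analysed. HISAT2, StringTie and the build hg19 were used, per the submitters' processing notes (versions not given in the sources used here). A stranded kit selecting polyadenylated RNA was used, per the labels' protocols. The authors deposited TPM, FPKM and coverage (mean depth, used as signal) per gene, per the file headers. The files hold no counts, so counting error is unknown.

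TPM rows were summed per gene ID. RefSeq symbols (GRCh38.p14) matched 27559 IDs and left 126 unmatched. Gene IDs averaging at least 1 TPM were tested on log2(TPM + 1), which understates changes of low genes, with limma 3.58.1 (R 4.3.3): group as the only term, a mean-variance trend, two-sided, Benjamini-Hochberg over all 13938 genes, threshold 0.05, 2 residual and 4.09 prior degrees of freedom. SD is over 2 libraries; intervals are 95%. The fit was tested on simulated data with few changed genes, balanced directions and independent noise. The real data held many more calls, mostly rises, so that test does not give their error rate. Python 3.11.15, pandas 2.3.3 and matplotlib 3.10.9 made tables and plots.

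Members and lists were chosen with earlier results of these data known. All members are accounted for; of each other list, up to 4 called genes with the largest change are named. TCIRG1, MITF, ZKSCAN3, PSAP, NPC2 and the overlapping genes were named after their values were seen. Alternatives were no filter, a 5 TPM minimum, pseudocounts of 0.1 and 5, FPKM, median-of-ratios scaling, quantile normalisation, no trend, a replicate block, leaving out each library, and, chosen after seeing the data, coverage per aligned Gb.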

Additional observations from a re-analysis of the deposited data

How the results depend on the processing

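No member or named list gene changed direction against its call under any alternative. The filters, the trend setting and the replicate block leave the log2 change as it is, so they could not reverse it. Nor could leaving out a library reverse a called gene, since the groups of these genes did not overlap. Of 418 member values 369 kept their side of the threshold, 40 no longer passed it and 9 newly passed. Of 402 values of named list genes 300 kept it and 102 no longer passed. None of these could newly pass, because the genes were named for being called. Of the 12 called members, 4 (ATP6V0C, ATP6V0E1, ATP6V0E2 and ATP6V1D) kept their call under all 14 alternatives. Some members that were not called changed sign. After median-of-ratios scaling, for example, the log2 change of ATP6V1E1 went from 0.06 to -0.05 and that of CTSV from 0.05 to -0.06. The number of V-ATPase genes that rose was 9, and 5 after median-of-ratios scaling and after quantile normalisation, 6 with no filter on low values and with no mean-variance trend, and 5 to 8 with 1 library left out; those that fell were 1, and 2 with no filter and 0 to 1 with 1 library left out. Cathepsins that rose were 2, and 0 after median-of-ratios scaling, 1 after quantile normalisation, 1 with no mean-variance trend, 3 with no filter or a 5 TPM minimum, and 1 to 2 with 1 library left out; those that fell were 0, and 2 after median-of-ratios scaling, 1 after quantile normalisation, 1 with the replicate block, and 0 in every fit with 1 library left out. Other lysosomal genes that rose were 21, and 12 and 9 after those scalings, 14 with no mean-variance trend and 9 to 13 with 1 library left out; those that fell were 15, and 20 and 19 after those scalings, 9 with no filter, 8 with no trend and 5 to 9 with 1 library left out. The cause was not tested. The labels' replicate numbers are shared by the groups, and same-numbered libraries deviated together at a correlation of 0.0229. With 2 pairs this value cannot settle whether the libraries were paired. With the replicate block 10 V-ATPase genes rose and 1 fell, 2 cathepsins rose and 1 fell, and 21 other lysosomal genes rose and 17 fell. ATP6AP2 (limma adjusted p = 0.0115, higher) and CTSH (0.0429, lower) passed the threshold with the block and not without it. Paralog shares were the same from FPKM as from TPM. With 1 library left out, the lone library is assumed to vary like the other group. Read depth is known only through coverage, and members below 1 TPM are limited by it.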
